A study of Mus musculus with 3 samples.

Results

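The genes described here encode the lysosomal proton pump and the machinery that carries amino acid signals to the kinase complex mTORC1. They are a list of 36 genes chosen by symbol, and all 36 were found among the 55536 Ensembl genes of the tables. The list holds 8 subunits of the V0 sector and 8 of the V1 sector of the vacuolar ATPase, 2 accessory subunits, 5 Ragulator subunits, 4 RAG GTPases, 3 genes of the folliculin complex, 3 core subunits of mTORC1, and Rheb with Tsc1 and Tsc2. Total RNA-seq was performed on the cytosolic fraction of macrophages that were grown from C57BL/6J bone marrow and treated for 10 minutes with Lipid A at 100 ng/ml. Lipid A is the membrane anchor of bacterial lipopolysaccharide and the ligand of the receptor TLR4. These conditions form 1 group of 3 biological replicates, each made from 1 µg of RNA. The labels give 1 donor identifier for the 3 replicates and do not say whether these came from separate animals or cultures. Every test below therefore concerns these samples only, and the spread between them may be technical. No untreated cells belong to the group, so each value is a level after stimulation and not a response to it.

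The vacuolar ATPase pumps protons into lysosomes and endosomes. Its V0 sector spans the membrane and conducts the protons, and its V1 sector lies in the cytosol and hydrolyses ATP. In macrophages the acid produced in this way serves the digestion of engulfed material. The pump also binds Ragulator, a scaffold that anchors the RAG GTPases to the lysosomal surface. RAG heterodimers recruit mTORC1 there when amino acids are plentiful, and RHEB, which the TSC complex holds in check, then activates the kinase.

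Reads estimated on genes numbered 33825547, 54667365 and 43176007 in replicates 1, 2 and 3. Of the 10 macrophage markers, all 10 reached 1 TPM in every library, between Lyz2 at 4970 ± 427 TPM and Itgam at 29.1 ± 9.90 TPM (SD, n = 3). TPM measures a gene's share of all transcripts and allows for transcript length. No marker of T and NK cells, B cells, erythroid cells or stroma reached 1 TPM in every library; the highest of these lists were Cd79b at 0.96 TPM, Lck at 0.1 TPM, Klf1 at 0.03 TPM and Cxcl12 at 0.02 TPM. The neutrophil list had 1 of 7 genes at that level, Mmp8 at 6.02 TPM, and Ly6g was listed at 0. The osteoclast list had 2 of 8, Nfatc1 at 12.5 TPM and Acp5 at 1.29 TPM, and Calcr was listed at 0. In bulk RNA, fewer cells of a type and less RNA per cell cannot be told apart.

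The proton pump was the more abundant side of the list, and the mTORC1 core had the lowest class median. Summed over its genes, the V0 sector reached 1127 ± 36.3 TPM and the V1 sector 688 ± 39.2 TPM, against 198 ± 9.27 TPM for Ragulator and 14.5 ± 0.814 TPM for the mTORC1 core (SD, n = 3). These sums cover 8, 8, 5 and 3 genes and so depend partly on class size. Atp6v0c by itself averaged 573 TPM, and without it the V0 sum would lie below the V1 sum. Of the 36 genes, 35 had at least 1 TPM in each library and 29 had at least 10 TPM. The median was 48.6 ± 7.81 TPM over all 36 genes, 85.9 ± 3.99 TPM over the 18 genes of the pump and 17.6 ± 1.22 TPM over the 18 others. The 9164 protein-coding genes with at least 1 TPM in each library had a median of 7.58 ± 0.440 TPM. Of the list, 30 genes lay above that median and 19 were among the 1000 protein-coding genes with the highest mean. Sorted by mean level, the 36 genes form 35 neighbouring pairs: 12 had ranges that did not overlap, and the ranges of the other 23 overlapped. Of those 23, 9 kept 1 order within each of the 3 libraries, and the order of the rest differed between libraries.

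**Figure D1:**
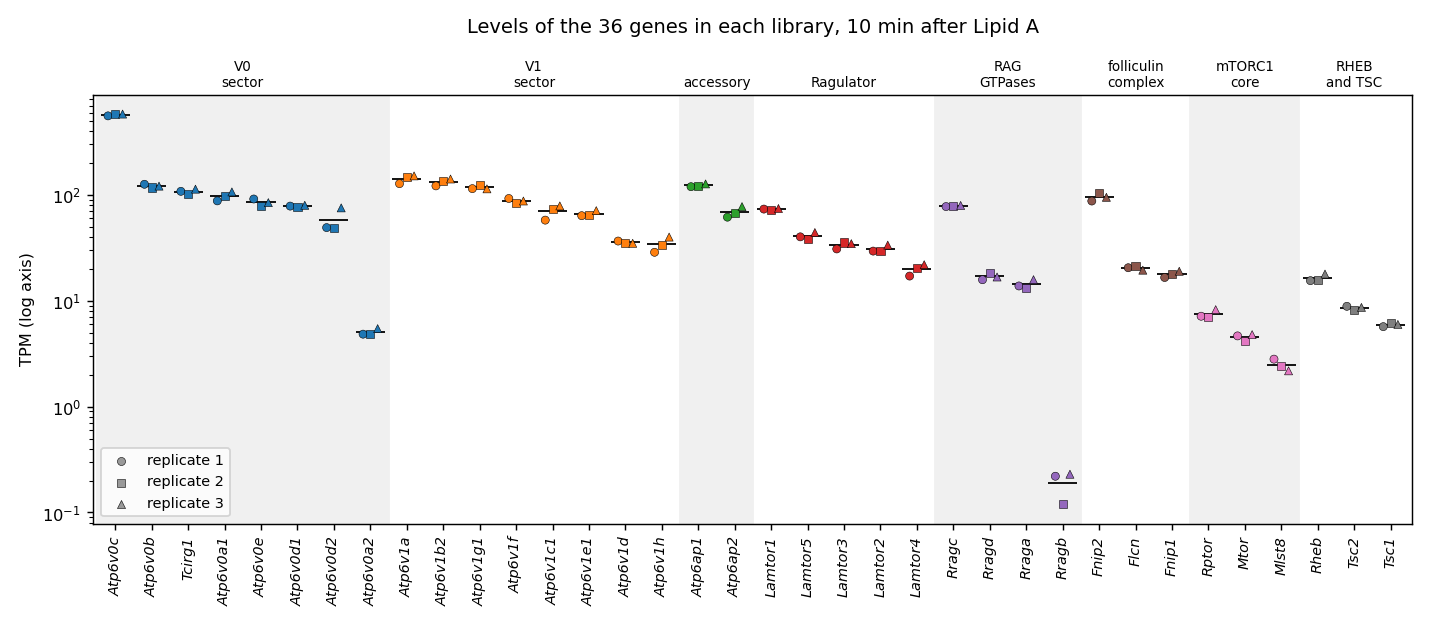
TPM (log axis) of each of the 36 genes in each library, grouped by complex; circles, squares and triangles are replicates 1, 2 and 3 and the line is their mean. Atp6v0c stands highest at a mean of 573 TPM, Rragb lowest at 0.19 TPM, and the 3 mTORC1 core genes lie between 2.47 and 7.47 TPM.

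Promoter sequence was examined for the E-box CACGTG, the core of the element through which the factors TFEB, TFE3 and MITF act on lysosomal genes. RefSeq promoter windows of assembly GRCm38.p6, from 250 bases before to 50 after a gene's start, were on hand for 29 of the 36 genes, all but Atp6v0d2, Atp6v0a2, Atp6v1g1, Atp6v1b2, Atp6v1c1, Atp6v1h and Lamtor3. CACGTG, which reads the same on both strands, was present in 10 of the 29 genes (34.5%), against 2187 of 27025 genes (8.09%) with a window. Those 10 were Atp6v0b, Atp6v0d1, Atp6v0e, Atp6v1a, Lamtor1, Lamtor4, Rragb, Rragc, Fnip1 and Rheb. The longer palindrome TCACGTGA, which contains CACGTG, was found in Atp6v0d1, Atp6v0e and Atp6v1a, 3 of 29 (10.3%) against 1.12% of all genes. GTCACGTG or its reverse complement CACGTGAC, searched on both strands and overlapping both motifs above, was found in Atp6v0b, Atp6v0d1, Rragb and Rheb, 4 of 29 (13.8%) against 2.55%. The full-length palindromic CLEAR element occurred in 0 of 29, against 0.370% of all genes. The comparison genes are all genes with a window, not matched to the list for expression or base composition. Whether the shares differ for that reason was not tested. These matches describe letters in a window and are not binding sites. RefSeq starts can differ from the gene bounds used for expression. The Atp6v0e window, chr17:26676146-26676445, lies inside that gene's annotated span, chr17:26663231-26699647. Likewise the Rheb window, chr5:24842312-24842611, lies wholly inside the annotated span of Rheb, chr5:24802823-24842624.

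The 4 windows printed here, 5′ to 3′ on the strand of the gene, set a V0 and a V1 subunit that carry the longer palindrome beside the paralogues Rraga and Rragb, of which Rragb was the far less abundant. CACGTG is in capitals. In Atp6v0d1 it begins 3 bases before the RefSeq start, in Atp6v1a 131 bases before, and in Rragb 127, 36 and 3 bases before. The Atp6v1a window lies wholly inside the gene as annotated for the expression values, chr16:44085402-44139705, downstream of its annotated start. The Rraga window has no CACGTG.
Atp6v0d1 chr8:105566015-105566314(-): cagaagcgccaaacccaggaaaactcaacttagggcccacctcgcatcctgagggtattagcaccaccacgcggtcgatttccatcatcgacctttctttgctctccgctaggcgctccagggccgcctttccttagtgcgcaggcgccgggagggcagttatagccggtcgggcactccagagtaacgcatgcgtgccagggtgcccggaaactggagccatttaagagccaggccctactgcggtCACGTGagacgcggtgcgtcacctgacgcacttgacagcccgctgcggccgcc
Atp6v1a chr16:44139210-44139509(-): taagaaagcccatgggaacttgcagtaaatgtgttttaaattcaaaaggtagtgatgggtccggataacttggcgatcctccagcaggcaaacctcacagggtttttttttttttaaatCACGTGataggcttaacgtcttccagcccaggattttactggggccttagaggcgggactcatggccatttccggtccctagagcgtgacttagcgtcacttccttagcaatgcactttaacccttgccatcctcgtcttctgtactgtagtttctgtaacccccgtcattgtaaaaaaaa
Rraga chr4:86575423-86575722(+): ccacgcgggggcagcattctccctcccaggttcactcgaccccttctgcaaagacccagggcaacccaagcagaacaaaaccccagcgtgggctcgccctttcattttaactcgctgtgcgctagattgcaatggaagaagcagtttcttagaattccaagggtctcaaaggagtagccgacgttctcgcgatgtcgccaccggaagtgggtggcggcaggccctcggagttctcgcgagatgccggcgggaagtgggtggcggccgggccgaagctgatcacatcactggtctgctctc
Rragb chrX:153139708-153140007(+): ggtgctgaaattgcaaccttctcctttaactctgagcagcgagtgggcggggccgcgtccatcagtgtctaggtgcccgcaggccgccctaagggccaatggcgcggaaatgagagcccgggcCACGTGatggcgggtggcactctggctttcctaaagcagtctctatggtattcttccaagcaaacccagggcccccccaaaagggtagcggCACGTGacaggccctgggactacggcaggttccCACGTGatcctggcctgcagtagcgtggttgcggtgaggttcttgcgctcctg
Rraga, whose window had 0 matches, averaged 14.3 TPM, and Rragb, whose window had 3, averaged 0.19 TPM and was the lowest gene of the list. Atp6v1a, whose window also has CACGTG, averaged 142 TPM. Whether expression level goes with the motif was not tested.

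The 8 genes of the V0 sector, which conducts the protons, spread widely, between 5.04 and 573 TPM, with a median of 91.3 ± 3.97 TPM (SD, n = 3). Atp6v0c, at chr17:24163866-24169702 (mm10, minus strand), encodes the proteolipid present in several copies in the proton-carrying ring, and had 559, 580 and 581 TPM in replicates 1, 2 and 3, at rank 36 among protein-coding genes. Its mean was 4.03 times that of Atp6v1a, the next gene of the list. Atp6v0b, a second subunit of the ring, had 126, 118 and 121 TPM. Atp6v0e, a small membrane subunit, had 91.6, 78.9 and 84.7 TPM, and replicate 1 was highest for both.

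The a subunit of V0, which forms the path of the protons beside the ring, is encoded by genes whose products go to different membranes, and 2 of them shared its mRNA almost evenly. Tcirg1, the a3 isoform of lysosomes and of the osteoclast's ruffled border, had 108, 101 and 113 TPM. Atp6v0a1, the a1 isoform, had 87.9, 97.6 and 107 TPM. Atp6v0a2, the a2 isoform known from the Golgi and endosomes, had 4.84, 4.81 and 5.46 TPM. Tcirg1 thus held 51.3 ± 2.24% of the a-subunit TPM, Atp6v0a1 46.3 ± 2.25% and Atp6v0a2 2.40 ± 0.03% (SD, n = 3). Tcirg1 exceeded Atp6v0a1 by 0.14 ± 0.13 on the log2(TPM + 1) scale (exact sign-flip permutation p = 0.25), and their ranges overlapped. In the second transcript quantification that order turned round, at -0.026, with 48.4% for Tcirg1 and 49.3% for Atp6v0a1, so neither gene can be called the higher. Tcirg1 exceeded Atp6v0a2 by 4.17 ± 0.05 (exact p = 0.25, 3 of 3 libraries), and Atp6v0a4, the a4 isoform of kidney, was listed at 0 in replicates 1 and 2 and at 0.03 TPM in replicate 3.

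The d subunit, which connects the ring to the rotor, was split between Atp6v0d2 and Atp6v0d1, and the split differed between libraries. Atp6v0d2, the isoform known from mouse osteoclasts, where it takes part in cell fusion, had 49.2, 48.9 and 75.5 TPM. Atp6v0d1, the ubiquitous isoform, had 78.5, 77.0 and 79.9 TPM. Atp6v0d2 was lower in every library, by 0.46 ± 0.33 on the log2(TPM + 1) scale (exact sign-flip permutation p = 0.25), but replicate 3 was close to parity, and without replicate 3 the difference was -0.65. Its share of d-subunit TPM was 38.5% in replicate 1, 38.8% in replicate 2 and 48.6% in replicate 3. Atp6v0d2 lies at chr4:19876841-19922605 (mm10) on the minus strand. Its normalised counts, which are CPM of the TMM effective library size, were 217, 217 and 306, a ratio of 1.41 between the highest and the lowest library and the largest among the 35 genes of the list with a summed count of 300 or more (adjusted p = 1.8e-201, chi-square test of counts over all genes). Without replicate 3 it was not called.

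Other genes were also highest in replicate 3. The summed level of the 8 osteoclast markers was 15.9, 13.9 and 16.4 TPM, most of it Nfatc1, and without Nfatc1 it was 2.26, 2.13 and 4.39 TPM. Ctsk, the collagen-digesting protease of osteoclasts, had 0.86, 0.79 and 1.70 TPM, Acp5, an acid phosphatase, had 1.07, 1.12 and 1.68 TPM, Mmp9 had 0.17, 0.16 and 0.43 TPM, and Dcstamp, a fusion protein, had 0.16, 0.06 and 0.54 TPM. The counting test described below called 5 of the 5 osteoclast markers tested, beside 49.2% of all genes tested. It also called 10 of the 10 macrophage markers, so being called does not set the osteoclast markers apart. By CPM after TMM scaling, 4 of the 5 osteoclast markers were highest in replicate 3 and Nfatc1 was highest in replicate 1. Of all genes called, 35.9% were highest in replicate 3. The lowest counts among the 5 markers were those of Dcstamp, with 17, 9 and 56, and of Mmp9, with 34, 47 and 96. Among markers of osteoclasts, Calcr was listed at 0 and Ocstamp and Oscar were at or under 0.03 TPM in every library. The macrophage markers were divided: by CPM after TMM scaling, 4 of the 10 were highest in replicate 3, among them Itgam with 23.4, 23.4 and 40.5 TPM, and 6 were highest in replicate 1. The part of osteoclast-like cells in the value of Atp6v0d2 was not tested.

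**Figure D2:**
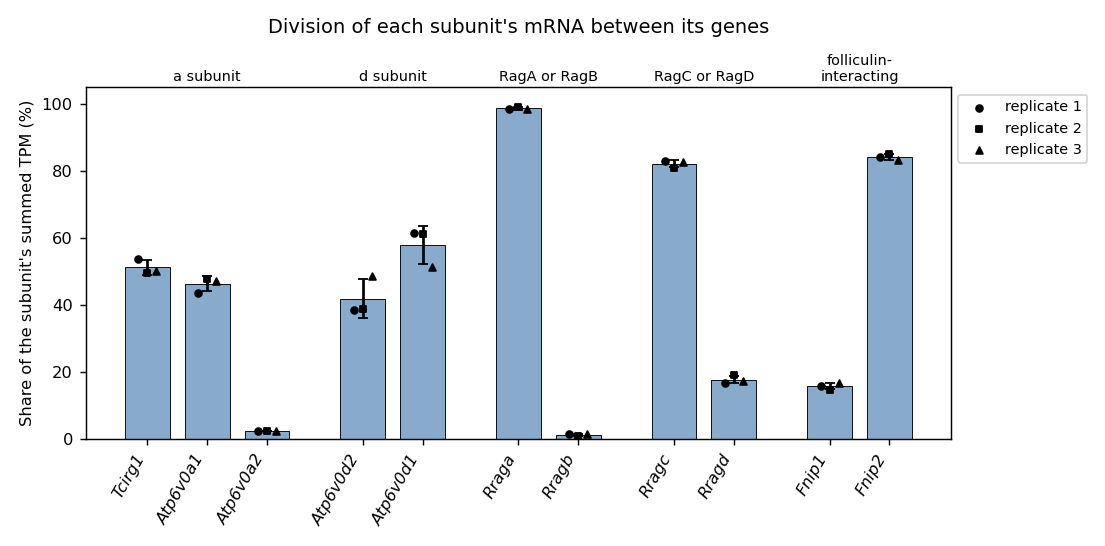
Percentage of a subunit's or family's summed TPM that each of its genes holds; bars are means, error bars are SD and points are the 3 libraries. Tcirg1 and Atp6v0a1 are near equal, at 51.3% and 46.3%, replicate 3 stands apart for the d subunit at 48.6% Atp6v0d2, and Rraga, Rragc and Fnip2 hold 98.7%, 82.2% and 84.2% of their pairs.

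The 8 genes of the ATP-hydrolysing V1 sector lay closer together than those of V0, between 34.2 and 142 TPM, with a median of 80.3 ± 2.65 TPM (SD, n = 3). Atp6v1a, the catalytic A subunit, was highest, with 128, 147 and 151 TPM. Atp6v1b2, the B subunit that alternates with A in the ring, had 122, 135 and 142 TPM. Atp6v1g1 of the peripheral stalks had 115, 124 and 114 TPM. The ranges of these 3 genes overlapped in part. Atp6v1f, a subunit of the central rotor, followed with 92.6, 84.7 and 87.7 TPM, and replicate 1 was its highest library. Atp6v1c1, the C subunit that links stator to V0 and is released when the pump disassembles, had 57.8, 74.4 and 78.8 TPM, with replicate 1 apart from the others. Atp6v1e1 of the peripheral stalks had 63.7, 64.8 and 71.1 TPM. The lowest of the sector were Atp6v1d, the rotor shaft, with 36.7, 35.5 and 35.0 TPM, and Atp6v1h, which regulates the coupling of V1 to V0, with 28.7, 33.9 and 40.0 TPM. Between the sectors, the V0 median exceeded the V1 median by 0.19 ± 0.04 log2(TPM + 1) units, with the same sign in 3 of 3 libraries and an exact sign-flip permutation p of 0.25, the smallest that 3 libraries allow.

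Both accessory subunits were abundant. Atp6ap1, which takes part in pump assembly, had 120, 122 and 127 TPM, and Atp6ap2, also known as the prorenin receptor, had 61.7, 68.1 and 77.6 TPM. The isoforms of the pump known from particular tissues were nearly undetected: 1 of 7 reached 1 TPM in every library, Atp6v1g2 of the brain at 1.22, 1.30 and 1.28 TPM. Atp6v1g1 exceeded it by 5.71 ± 0.05 log2(TPM + 1) units (exact sign-flip permutation p = 0.25) and held 98.9% of the G-subunit TPM. Atp6v1e2, known from testis, had no count in any library, which allows up to 0.05, 0.03 and 0.04 TPM by a limit of 3 counts per library that covers counting error only. Against that limit Atp6v1e1 was at least 1293-fold higher in replicate 1, 2089-fold in replicate 2 and 1686-fold in replicate 3. Atp6v1b1, known from kidney, had 2, 0 and 2 counts, Atp6v1c2 had 0, 1 and 0, and Atp6v0e2 had 4, 2 and 1, while Atp6v1g3 was listed at 0. Of the 9 genes that assemble the pump or regulate its assembly, all 9 reached 1 TPM in every library, between Oxr1 at 23.1 ± 1.55 TPM and Rogdi at 3.23 ± 0.265 TPM, and their median of 11.0 ± 1.197 TPM lay under that of the pump.

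Ragulator, the scaffold that Lamtor1 ties to the lysosomal membrane, was present with all 5 subunits, at a median of 33.7 ± 2.46 TPM (SD, n = 3). Lamtor1, which carries the lipid anchor and wraps around the others, was highest with 73.5, 71.6 and 74.5 TPM. Lamtor5 had 40.2, 38.3 and 44.2 TPM, Lamtor3 30.9, 35.5 and 34.7 TPM, and Lamtor2, the partner of Lamtor3 in a roadblock-domain dimer, 29.5, 29.4 and 33.6 TPM. Lamtor4, which pairs with Lamtor5, was lowest with 17.1, 20.3 and 21.9 TPM. Lamtor3 lay above Lamtor2 within each library although their ranges overlapped, and the range of Lamtor5 lay above that of Lamtor4. Ragulator's median exceeded that of the RAG GTPases by 1.07 ± 0.07 and that of the mTORC1 core by 2.65 ± 0.16 log2(TPM + 1) units, each with 1 sign in the 3 libraries (exact sign-flip permutation p = 0.25 for both).

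RAG GTPases work as heterodimers of RagA or RagB with RagC or RagD, and 1 gene predominated on each side. Rragc had 77.7, 78.0 and 79.6 TPM and Rragd, its paralogue, 15.8, 18.3 and 16.8 TPM. Rragc held 82.2 ± 1.10% of the pair and exceeded Rragd by 2.15 ± 0.10 on the log2(TPM + 1) scale (exact sign-flip permutation p = 0.25, 3 of 3 libraries). On the other side, Rraga had 13.8, 13.2 and 15.8 TPM and Rragb 0.22, 0.12 and 0.23 TPM. Rragb, at chrX:153139981-153171943 (mm10, plus strand), rested on 16, 25 and 35 counts, with 3 counts worth 0.04, 0.01 and 0.02 TPM. It was therefore detected, at a level below 1 TPM in every library, and Rraga held 98.7 ± 0.351% of the pair, a difference of 3.68 ± 0.09 on the log2(TPM + 1) scale (exact p = 0.25, 3 of 3 libraries). Summed, the RagC and RagD genes had more TPM than the RagA and RagB genes in every library, since Rragc by itself had more than Rraga and Rragb together.

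The folliculin complex, a GTPase-activating complex for RagC and RagD, was led by Fnip2. Flcn, the catalytic subunit, had 20.5, 21.2 and 19.5 TPM. Fnip1, which binds it, had 16.6, 18.0 and 19.0 TPM, and the paralogue Fnip2, at chr3:79455974-79567796 (mm10, minus strand), had 87.6, 103 and 95.04 TPM. Fnip1 was lower than Fnip2 by 2.35 ± 0.10 on the log2(TPM + 1) scale (exact sign-flip permutation p = 0.25, 3 of 3 libraries), and Fnip1 held 15.8 ± 0.935% and Fnip2 84.2 ± 0.935% of their summed TPM. Fnip2 was the most abundant gene outside the pump.

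The mTORC1 core lay at the low end. Rptor, whose product raptor binds substrates and the RAG dimer, had 7.15, 7.0 and 8.25 TPM. Mtor, the kinase, had 4.66, 4.18 and 4.79 TPM, and Mlst8, which binds the kinase domain, 2.81, 2.43 and 2.18 TPM. These are levels of mRNA and do not give the activity of the kinase. The core's median of 4.54 ± 0.321 TPM lay under the median of 7.58 TPM for detected protein-coding genes. Rheb had 15.5, 15.9 and 17.9 TPM. Tsc1, which stabilises the TSC complex, had 5.70, 6.17 and 5.98 TPM, and Tsc2, its GTPase-activating subunit, 8.87, 8.22 and 8.66 TPM. Tsc1 was lower than Tsc2 by 0.46 ± 0.10 log2(TPM + 1) units, and the median of the folliculin complex exceeded that of Rheb, Tsc1 and Tsc2 by 1.16 ± 0.10, both in 3 of 3 libraries (exact sign-flip permutation p = 0.25 for each).

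The other lists of the pathway had medians under that of the 36 genes. Detection here means at least 1 TPM in each library. GATOR1, which turns RagA and RagB off, had 3 of 3 genes detected, between Depdc5 at 4.01 ± 0.476 TPM and Nprl2 at 2.23 ± 0.211 TPM. GATOR2, its antagonist, had 5 of 5, between Sec13 at 22.3 ± 1.60 TPM, which also serves the nuclear pore and vesicle coats, and Wdr59 at 1.55 ± 0.07 TPM. Of 8 KICSTOR and amino acid sensor genes, 7 reached 1 TPM in every library. Sesn1, a leucine-binding inhibitor of GATOR2, stood far above the others of that list with 62.7, 60.1 and 64.9 TPM, while Itfg2 of KICSTOR had 0.983 ± 0.02 TPM. In the list of other mTORC1 and mTORC2 subunits, which also held Tbc1d7 of the TSC complex, 6 of 7 genes reached 1 TPM. That list ran from Akt1s1, the inhibitory subunit PRAS40, at 15.5 ± 0.701 TPM to Prr5 at 0.58 ± 0.15 TPM. All 6 substrates reached 1 TPM, from Eif4ebp2, a translation repressor, at 21.4 ± 0.601 TPM to Rps6kb1, which encodes S6 kinase, at 3.71 ± 0.488 TPM. List medians were 2.32 ± 0.261 TPM for GATOR1, 3.22 ± 0.108 TPM for GATOR2, 3.50 ± 0.195 TPM for KICSTOR and sensors and 6.86 ± 0.508 TPM for the substrates.

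The libraries differed for most genes of the list, by small ratios. A chi-square test of counts, which asks whether libraries differ by more than counting error, called 27 of 36 genes (Benjamini-Hochberg adjusted p at or under 0.05 over all genes), beside 49.2% of the 13494 genes tested. With a summed count of 300 or more, the genes of the list were called in 27 of 35 cases, beside 53.6% of 10326 genes. Deep counts let this test call slight differences: adjusted p ran from 0.0478 for Rraga to 9.1e-236 for Fnip2, whose highest library was 1.21 times its lowest. The median ratio of highest to lowest library was 1.10 over the 35 genes and 1.12 over all genes of that depth, and the median coefficient of variation by edgeR was 7.20% and 8.55%. A ratio of 1.2 or more was found for 6 of 35 genes, Atp6v0d2, Atp6v1c1, Atp6v1h, Lamtor4, Mlst8 and Fnip2, beside 27.5% of all genes, and of 1.5 or more for 0 of 35, beside 6.66%. Both of these thresholds were chosen after the values were seen. The count at 1.2 ran from 4 of 35 by total counts to 9 of 35 in the second quantification. Beside these stood 28.5% and 29.2% of all genes of that depth. The genes not called were Tcirg1, Atp6v0a2, Atp6v1e1, Lamtor2, Lamtor5, Rragb, Mtor, Rheb and Tsc2. Without replicate 3, 17 of the 36 genes were called, beside 34.4% of all genes tested in that fit. Without replicate 1 it was 24, beside 27.5%, and without replicate 2 it was 22, beside 40.9%. Of the 38 genes of the assembly, GATOR, KICSTOR and sensor, other mTOR subunit and substrate lists that were tested, 18 were called. That is near the 49.2% of all genes tested.

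Among the subunits with the larger ratios, Atp6v1c1 had 202.7, 261 and 252 CPM after TMM scaling, lowest in replicate 1, a ratio of 1.29 (adjusted p = 5.9e-68, chi-square test). Atp6v1h had 97.1, 114 and 122, also lowest in replicate 1, a ratio of 1.25 (adjusted p = 1.9e-22, chi-square test). Lamtor4 followed with 20.8, 25.8 and 25.1 and a ratio of 1.24, and Mlst8, with 13.9, 13.6 and 11.3, was instead lowest in replicate 3. Which library was highest differed from gene to gene. Of the 27 genes called, 4 were highest in replicate 1, 17 in replicate 2 and 6 in replicate 3, beside 40.5%, 23.6% and 35.9% of the 6645 genes called in all. This depended on scaling: among the 35 deeper genes, 5, 19 and 11 were highest in replicates 1, 2 and 3 after TMM scaling, 14, 10 and 11 by total counts, and 6, 6 and 23 by deposited TPM. For Atp6v0d2 replicate 3 was highest under every scaling tried, with ratios between 1.41 and 1.54, the higher by deposited TPM.

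**Figure D3:**
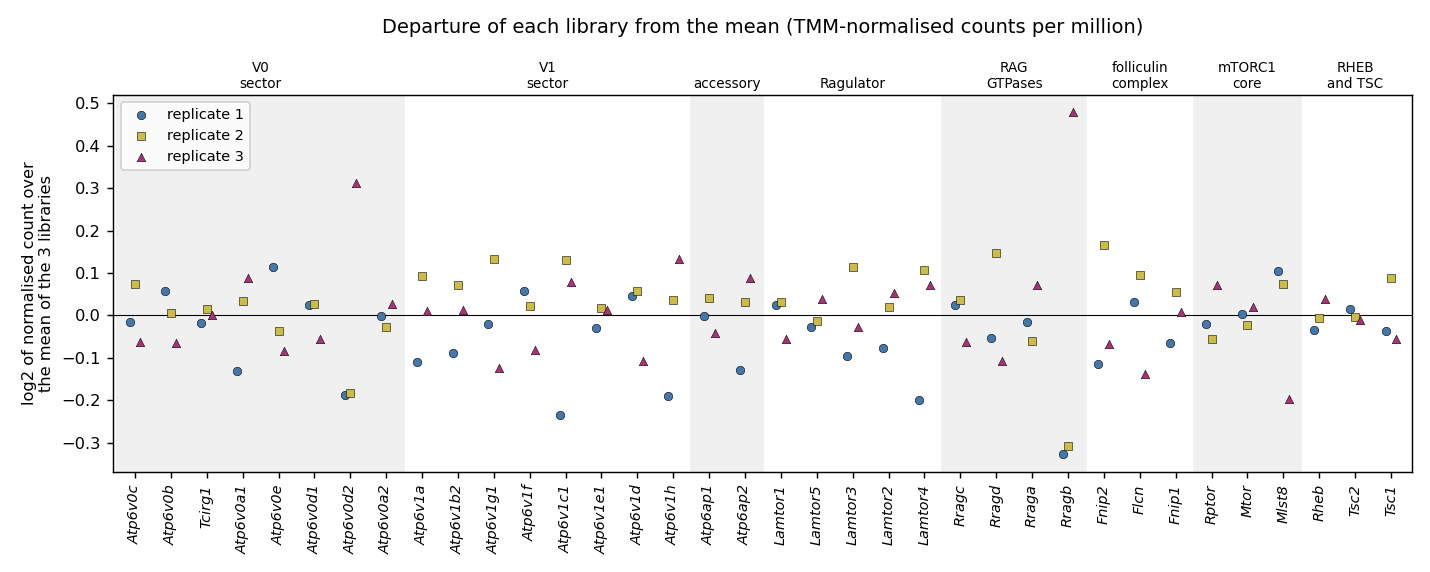
log2 of each library's TMM-normalised count (CPM) over the mean of the 3 libraries, for the 36 genes by complex; circles, squares and triangles are replicates 1, 2 and 3. Atp6v0d2 is highest in replicate 3, Atp6v1c1 and Atp6v1h are lowest in replicate 1, and Rragb, which rests on 16, 25 and 35 counts, scatters most.

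The transcript tables divide each gene among its annotated transcripts. In the median gene of the list, protein-coding transcripts held 98.6% of the TPM in the first table and 98.3% in the second, and 27 genes were at 95% or more in the first table and 23 in the second. The 2 genes under 80% were Atp6v1d and Rptor, in both tables.

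For Atp6v1d, the rotor shaft of V1, protein-coding transcripts held 46.7%, 48.7% and 48.3% of the TPM, a mean of 47.9 ± 1.05% (SD, n = 3). A single retained-intron transcript, Atp6v1d-202, held 51.7 ± 1.09%, against 62.0 ± 1.41% in the second table. That transcript is 775 bases long, at chr12:78843002-78845391 on the minus strand (mm10), and 688 of its bases lie within exons of the coding transcript Atp6v1d-201, which is 3667 bases long, so reads from those bases fit both transcripts. Rptor was divided differently by the tables. Protein-coding transcripts of Rptor held 29.0 ± 6.85% of its TPM in the first table and 61.9 ± 7.46% in the second. Rptor-211, annotated as a target of nonsense-mediated decay, held 46.5 ± 3.58% in the first and 10.6 ± 4.79% in the second, while the coding Rptor-201 held 27.8 ± 4.89% and 60.8 ± 5.82%. These transcripts share 5969 bases of the 6138 of Rptor-211, and Rptor-211 lacks an exon of 76 bases at chr11:119811945-119812020 (mm10, plus strand). The retained-intron transcript Rptor-203 was given a like share by both, 21.9 ± 3.31% and 23.6 ± 2.58%.

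Elsewhere in the list, the retained-intron transcript Fnip2-205 held 15.4 ± 2.28% of Fnip2 in the first table and 13.6 ± 3.07% in the second. Rragd was coding in both, but its mRNA was divided between Rragd-203 and Rragd-202 as 65.6 ± 1.66% and 33.5 ± 2.23% in the first table and as 95.01 ± 1.17% and 3.17 ± 1.56% in the second. Tsc2-201 held 47.2 ± 1.65% of Tsc2 in the first and 13.4 ± 1.13% in the second. Another coding transcript of Tsc2 held 25.9 ± 3.53% and 41.97 ± 4.04%. Flcn was coding in both, with Flcn-203 at 51.7 ± 1.64% and Flcn-202 at 40.4 ± 2.11% in the first table, against 39.9 ± 2.71% and 47.4 ± 1.55% in the second. The tables thus differed in which transcript led for 3 of the 36 genes, Rptor, Tsc2 and Flcn, whereas Atp6v1d-202 led for Atp6v1d in both.

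**Figure D4:**
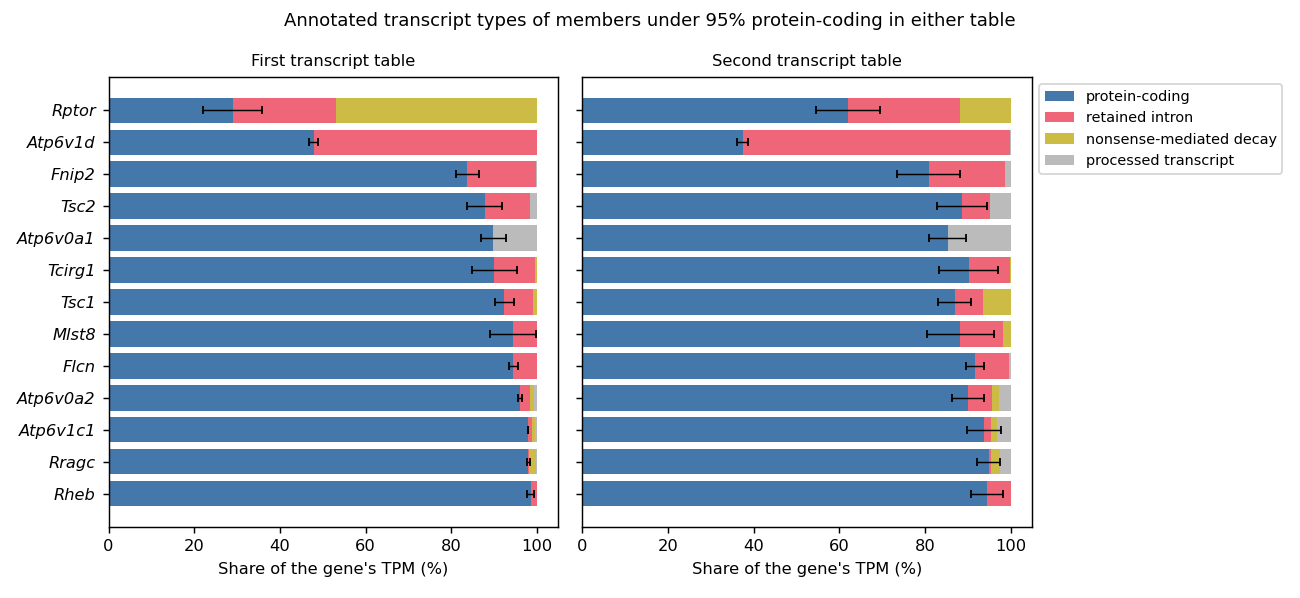
Percentage of a gene's TPM by annotated transcript type in the first and the second transcript table, for the 13 genes under 95% protein-coding in either; bars are means of 3 libraries and error bars the SD of the protein-coding share. Atp6v1d is 47.9% protein-coding in the first table, and Rptor is 29.0% in the first and 61.9% in the second.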

How the data were processed

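Total RNA-seq of 3 libraries was analysed, with 1 gene table and 2 transcript tables each. Per the file headers and the texts deposited beside the tables, the authors aligned reads to mm10 with GENCODE M21 and derived from these alignments the expected counts and the TPM of the gene table and of the first transcript table, whose layout is that of RSEM. They made the estimated counts and TPM of the second transcript table, in kallisto's layout, from the same annotation. Aligner, quantifier versions and strandedness were not given in the sources used here. Entries naming no mouse gene took 0.449%, 0.203% and 0.141% of counts (replicates 1, 2 and 3), and library sizes and tests do not include them. Deposited TPM also covers genes that do not code for protein: protein-coding genes held 24.2%, 24.1% and 26.3% of it. The rest was not broken down by type.

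Expected counts were rounded to whole numbers and compared between libraries by a chi-square test per gene against TMM effective library sizes (edgeR 4.0.16 in R 4.3.3), where counts over the libraries summed to at least 30, with p-values adjusted by Benjamini and Hochberg at 0.05. Gene pairs (12) and classes (4 pairs) were compared within libraries as log2(TPM + 1) by two-sided exact sign-flip permutation tests, adjusted over the pairs, which left every p at 0.25. That scale understates differences of low genes. Of the 36 genes, values in every library are given for each gene called, each pair and the extremes of each class. Of each comparison list, the highest gene is named, mostly by its mean. The lowest is also named, whether or not it reached 1 TPM, except for the T and NK, B cell, erythroid and stromal lists. Members and lists were chosen with earlier results of these data known. The chi-square test was tried on simulated counts, scaled by total counts, with counting error only apart from genes raised in replicate 3. That does not show how the test behaves with other variation between libraries. Promoters came from RefSeq tables of GRCm38.p6. Alternatives covered DESeq2 1.42.0 size factors, total counts, filters, the pseudocount, the second quantification, a protein-coding scale and leaving out libraries. Python 3.11.15, numpy 2.4.6, pandas 2.3.3, scipy 1.17.1 and matplotlib 3.10.9 were used.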

Additional observations from a re-analysis of the deposited data

How the results depend on the processing

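The median over the 36 genes moved with the TPM scale. It was 48.6 TPM as deposited, 195 TPM when TPM was rescaled to protein-coding genes and 22.1 TPM in the second quantification. On the protein-coding scale the second quantification gave 192 TPM, an alternative chosen after seeing the data. Protein-coding genes held 17.6%, 9.16% and 8.32% of TPM in the second quantification (replicates 1, 2 and 3). Its 22.1 TPM therefore joins libraries on unlike scales. Tcirg1 minus Atp6v0a1 turned to -0.026 in the second quantification and to -0.027 there on the protein-coding scale; the cause was not tested. Leaving out 1 library in turn gave 17 to 24 called genes of the list, the 17 without replicate 3, and 3518 to 5192 called genes in all, the 3518 without replicate 1, against 27 and 6645 with 3 libraries; fewer libraries and counts enter these fits. Of the alternative values in all, 160 kept their direction and stayed within the limits set, 5 moved and 2 turned round. Values within those limits could still change in size. Rraga minus Rragb, for example, was 3.68 log2 units and became 5.65 with a pseudocount of 0.1. No comparison between conditions was possible because the series has 1 group.

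The estimated counts of Atp6v0c, Atp6v1g1, Lamtor1, Lamtor3 and Tsc2 were not whole in at least 1 library, so some of their reads are divided with other genes and their levels are less certain. Without strand information, reads of overlapping antisense genes cannot be separated. With 3 libraries, a sign-flip test cannot go below 0.25; tissue isoforms with no count have an upper limit only.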
